A study of Homo sapiens with 6 samples.

Results

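Expression of the inhibitors of cyclin-dependent kinases (CDKs) and of the D-type cyclins was examined in MDA-MB-231 cells that received ADAR1 p110, the shorter and mainly nuclear form of an enzyme that edits adenosine to inosine in RNA duplexes. The members were 10 genes taken by name from a table of 60461 genes: 3 CIP/KIP inhibitors (CDKN1A, CDKN1B, CDKN1C), 4 INK4 inhibitors (CDKN2A, CDKN2B, CDKN2C, CDKN2D) and 3 D-type cyclins (CCND1, CCND2, CCND3). All 10 were found. MDA-MB-231 is an established human triple-negative breast cancer line that is known as deleted for CDKN2A. The 3 libraries of the ADAR1 p110 group came from cells transduced with an adenovirus coding for ADARp110, and the 3 of the GFP group from cells transduced with an eGFP control adenovirus, both at a multiplicity of infection of 200, with medium changed 16 h later and RNA taken at 48 h. All cells compared therefore carried an adenovirus, and cells without virus were not analysed here. The replicates are labelled biological, with no account of how the cultures were kept apart, so p-values measure only the spread between these libraries.

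D-type cyclins bind CDK4 and CDK6 in response to growth signals, and the active kinases phosphorylate the retinoblastoma protein RB, which then releases E2F transcription factors and lets cells enter S phase. INK4 proteins bind CDK4 and CDK6 and keep cyclin D from them. CIP/KIP proteins inhibit CDK2 complexes with cyclins E and A, and also help to assemble cyclin D complexes. CDKN1A encodes p21, a CIP/KIP inhibitor that many stress and growth signals induce.

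Libraries held 72741235 to 99589278 gene counts. ADAR itself had 991 to 1015 CPM (read counts scaled to library size by TMM, in the usual CPM unit) in the ADAR1 p110 libraries and 257 to 272 CPM in the GFP libraries. ADAR1 p110 replicate 1 and GFP replicate 2 stood apart on the second principal component of log2 CPM, at 26.2 and 24.1 against -18.2 to -7.49 in the other 4 libraries, so calls are also given without this pair. The pair was picked by its spread in these same data. Leaving it out took all called genes from 927 to 2605, so calls without it are not an independent check. The 4 genes fixed as high in this line, VIM, CD44, AXL and CAV1, summed to 4678 to 4838 CPM in the ADAR1 p110 libraries and 4313 to 4493 CPM in the GFP libraries. They did not all move the same way. Their log2 fold changes ran from -0.26 to 0.20. Of the 4, 1 was called as higher and none as lower, beside 4.91% of all tested genes called. The oestrogen receptor gene ESR1 and the progesterone receptor gene PGR were too low to test, at no more than 0.0827 CPM in any library. The other 3 genes fixed as low or absent in this line were detected: ERBB2 had 83.9 to 92.2 CPM, EPCAM 10.1 to 10.9 CPM, and the E-cadherin gene CDH1 3.88 to 4.33 CPM in the ADAR1 p110 and 2.70 to 2.85 CPM in the GFP libraries. CDH1 rose (log2 fold change 0.57, edgeR adjusted p = 0.00966), a call that ended when either ADAR1 p110 replicate 3 (0.0504) or GFP replicate 3 (0.0506) was left out, while ERBB2 and EPCAM did not pass. Of 12 leukocyte, fibroblast and endothelial markers, CD3E was at 0 and PECAM1 was not matched. The leukocyte list summed to 2.96 to 3.55 CPM in the ADAR1 p110 and 3.46 to 4.52 CPM in the GFP libraries. The fibroblast list summed to 26.8 to 30.7 and 27.7 to 30.3 CPM, and the endothelial list, mostly the receptor gene KDR, to 7.31 to 7.87 and 9.84 to 10.7 CPM. Of the 2 tested endothelial genes 1 was called lower, at a log2 fold change of -0.45, and the other, at 0.31, was not called. The share called over all tested genes was 4.91%. No tested leukocyte or fibroblast gene was called. The 2 tested fibroblast genes had unadjusted p under 0.05 in opposite directions, at log2 fold changes of -0.357 and 0.205. The part of these cell types in the results was not tested.

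The sequences just upstream of CDKN1A and CDKN1B are shown because CDKN1A had the largest change of the members and CDKN1B, of the same family, did not pass the test. Both are the 250 bases before the RefSeq start in build GRCh38.p14, a later build than the hg19 of the counts, on the plus strand (chr6:36678464-36678713 and chr12:12717118-12717367). Capitals mark GC boxes, the GGGCGG element bound by SP1-type factors, searched on both strands, where neighbouring matches may share a base.
CDKN1A: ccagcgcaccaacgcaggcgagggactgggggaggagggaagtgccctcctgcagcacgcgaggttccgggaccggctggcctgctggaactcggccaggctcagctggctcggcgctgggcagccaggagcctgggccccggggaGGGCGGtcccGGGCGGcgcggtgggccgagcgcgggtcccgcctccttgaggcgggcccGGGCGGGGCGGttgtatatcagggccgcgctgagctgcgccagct
CDKN1B: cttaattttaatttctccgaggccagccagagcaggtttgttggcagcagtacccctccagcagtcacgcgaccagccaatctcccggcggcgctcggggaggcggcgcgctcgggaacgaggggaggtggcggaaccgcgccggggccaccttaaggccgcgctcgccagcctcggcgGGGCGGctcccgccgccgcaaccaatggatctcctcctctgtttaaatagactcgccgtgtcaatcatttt

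The CDKN1A stretch held 4 GC boxes and was 76.4% G and C. The CDKN1B stretch held 1 GC box and was 64.4% G and C. At least 1 GC box was present in 42.6% of 35116 RefSeq promoters over the same length. RefSeq entries were found for 7 of the 10 members, with 12 starts in all, and not for CDKN1C, CCND1 and CCND2. The most GC boxes, 5 each, lay before 1 start of CCND3, which did not pass the test, and 1 start of CDKN2C, which rose. The other starts of these 2 genes held 0 to 2. None of the 12 stretches held the AP-1 element TGANTCA (6.57% of all promoters), the E2F element TTTNGCGC (1.51%), the kappaB motif (5.21%) or TATAAA (10.7%), searched on both strands. The E box CACGTG was found before 2 of the 3 CDKN2C starts and before 6.35% of all starts. A match or its absence describes these letters in this window only.

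CDKN1A was 1.93-fold lower in the ADAR1 p110 group, the cyclin gene CCND1 was 1.25-fold higher, the inhibitor genes CDKN1C and CDKN2C were 1.34-fold and 1.23-fold higher, and CDKN2A and CDKN2B were close to 0 in both groups. Of the 10 members 8 had enough counts to test, and 4 of these passed (quasi-likelihood test of edgeR, p adjusted by Benjamini-Hochberg and under 0.05), with 3 higher and 1 lower. Over all 18899 tested genes, 4.91% (927) passed, 1.95% as higher and 2.96% as lower, a count that ran from 396 without GFP replicate 1 to 1812 without ADAR1 p110 replicate 1. The 3 libraries of a group lay wholly above or below the other group for 5 of the 8 tested members, with 4 higher and 1 lower, beside 24.0% of all tested genes. The median log2 fold change of the tested members was 0.21, against 0.005 over all tested genes. The count of called members was 2 without ADAR1 p110 replicate 2, without ADAR1 p110 replicate 3 and without GFP replicate 1. CDKN1A and CCND1 were called in each of these fits.

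**Figure D1:**
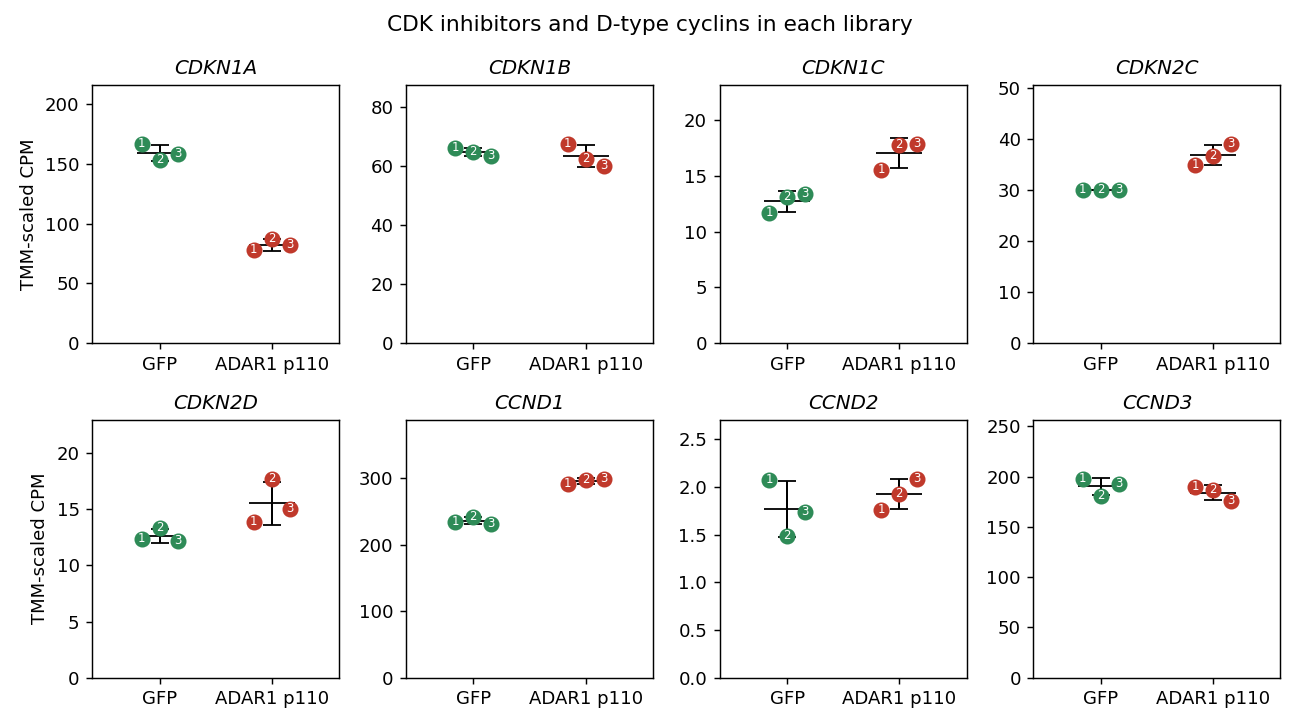
TMM-scaled CPM of the 8 tested members (vertical axes, each from 0) in the GFP (green) and ADAR1 p110 (red) libraries, with replicate numbers inside the points, long bars for group means and capped lines for the SD over 3 libraries. CDKN1A is lower in all 3 ADAR1 p110 libraries, at 77.4 to 87.3 against 153 to 166 CPM, and CDKN1B, CCND2 and CCND3 overlap between groups.

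The CIP/KIP inhibitors were taken first. CDKN1A (ENSG00000124762.13_2, hg19 chromosome 6, 36644237 to 36655116, plus strand) was counted 5882, 8598 and 6352 times in the ADAR1 p110 replicates, in order of number, and 14420, 11098 and 15564 times in the GFP replicates. Scaled to library size, these were 77.4, 87.3 and 82.2 CPM against 166, 153 and 158 CPM, so every ADAR1 p110 library lay far below every GFP library. The means were 82.3 ± 4.92 and 159 ± 6.64 CPM (SD, n = 3 each). The log2 fold change was -0.95 (SE 0.059, 95% interval -1.08 to -0.82, edgeR adjusted p = 3.58e-06). The fall was called in all 14 alternative fits, with log2 fold changes from -0.99 to -0.91. By p-value CDKN1A ranked 39 of all 18899 genes. In bulk RNA a fall in every cell cannot be told apart from a larger fall in some cells.

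CDKN1B encodes p27, the inhibitor that holds CDK2 in check in resting cells. Its levels were 67.3, 62.4 and 60.0 CPM in the ADAR1 p110 libraries and 66.1, 64.8 and 63.5 CPM in the GFP libraries, and the groups overlapped. The log2 fold change was -0.035 (95% interval -0.16 to 0.09, edgeR adjusted p = 0.815). This interval leaves out a fall as large as that of CDKN1A.

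CDKN1C, encoding p57, the imprinted member of the family, went the other way from CDKN1A. It had 15.5, 17.8 and 17.8 CPM in the ADAR1 p110 libraries and 11.7, 13.1 and 13.4 CPM in the GFP libraries, with no overlap between groups. The log2 fold change was 0.42 (SE 0.082, 95% interval 0.24 to 0.61, edgeR adjusted p = 0.0139). The call was lost without ADAR1 p110 replicate 2 (adjusted p = 0.0682), without ADAR1 p110 replicate 3 (0.0695) and without GFP replicate 1 (0.0707), with log2 fold changes of 0.40, 0.40 and 0.37. It was called at 0.51 without the pair of libraries that stood apart (ADAR1 p110 replicate 1, GFP replicate 2).

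Levels of different genes were compared per kb of the gene length deposited with the counts. That length need not be the length of the transcripts these cells express. All shares, ratios and orders between genes given here depend on it, while the fold change of a gene between groups does not. In the GFP group the summed level of the CIP/KIP genes was 80.1 ± 2.17 CPM per kb, and in the ADAR1 p110 group 56.1 ± 1.41 CPM per kb (SD, n = 3 each). CDKN1A made up 64.1% to 66.0% of that sum in the GFP libraries and 45.9% to 49.6% in the ADAR1 p110 libraries. The share of CDKN1B was 28.4% to 29.4% and 38.5% to 43.3% in the same order, and that of CDKN1C 5.46% to 6.49% and 10.8% to 12.5%. The level of CDKN1A per kb was therefore 2.26 ± 0.0759 times that of CDKN1B in the GFP group and 1.20 ± 0.125 times in the ADAR1 p110 group. These sums and shares were not tested, since the members were chosen with results known.

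**Figure D2:**
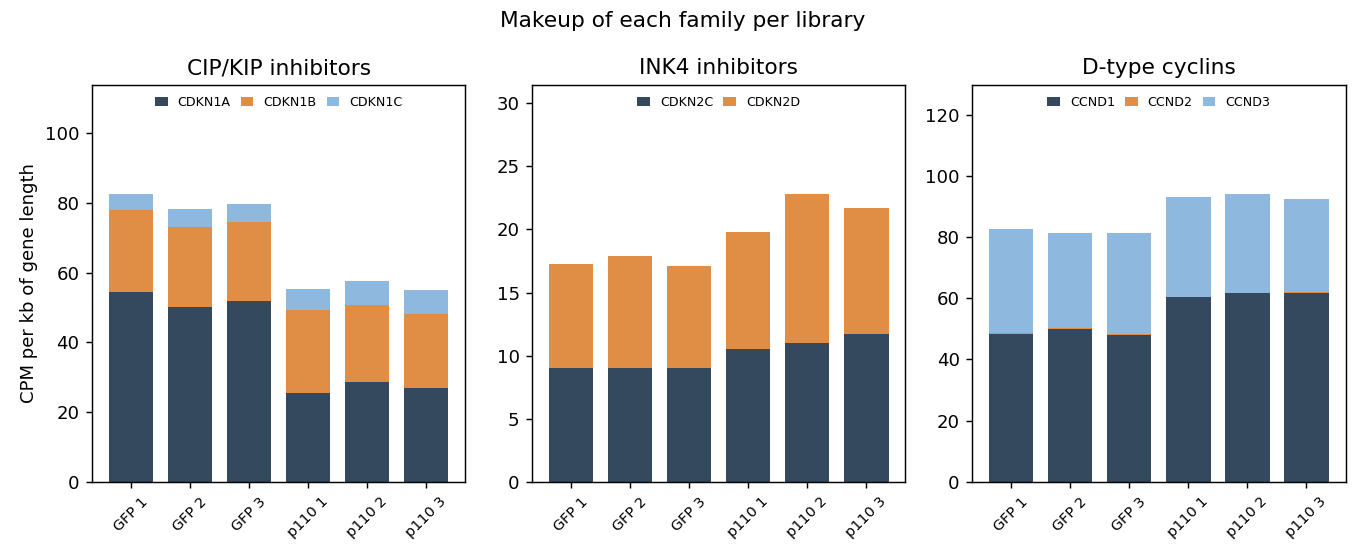
CPM per kb of gene length (vertical axis, from 0) of the tested CIP/KIP, INK4 and D-type cyclin genes, stacked by gene, in each library of the GFP and ADAR1 p110 (p110) groups. The dark CDKN1A part shrinks in the ADAR1 p110 libraries while the CDKN1B part is 22.5 against 23.0 CPM per kb on average, and the CCND1 part of the D-type cyclins is 64.7% to 66.9% of the sum in ADAR1 p110 libraries and 58.5% to 61.5% in GFP libraries.

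The INK4 genes were of mixed level. CDKN2A encodes p16 and, in another reading frame, ARF, and CDKN2B next to it encodes p15. CDKN2A (hg19 chromosome 9, 21967752 to 21995300, minus strand) had 2 counts in GFP replicate 1 and 0 in the other 5 libraries. CDKN2B (hg19 chromosome 9, 22002902 to 22009362, minus strand) had 1 count in ADAR1 p110 replicate 2 and 0 elsewhere. A count of 0 allows up to 3 counts, or 0.0304 to 0.0414 CPM depending on the library, which covers counting error only. Both genes were at or under that limit in both groups, so neither was tested and no fold is given.

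Their neighbours were also nearly without counts. From the end of FOCAD to the start of TUSC1, a stretch of 4.68 Mb, none of the 25 protein-coding genes of the table, the members CDKN2A and CDKN2B included, had more than 3 counts in any library, and 18 were at 0 in all 6. MTAP, a gene of methionine salvage, was counted 2, 3 and 3 times in ADAR1 p110 cells and 1 time in each GFP library. The antisense RNA gene CDKN2B-AS1 had 1 count in all. FOCAD, on one side of the stretch, had 13.2 ± 0.523 and 12.2 ± 0.334 CPM in the ADAR1 p110 and GFP groups (log2 fold change 0.11, edgeR adjusted p = 0.435). Many genes in the stretch encode type I interferons, which most unstimulated cells do not transcribe, though all cells here carried an adenovirus. MTAP, KLHL9 and HACD4, also with no more than 3 counts in any library, are not interferon genes. Why the stretch was nearly without counts was not tested. DNA copy number was not measured here.

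**Figure D3:**
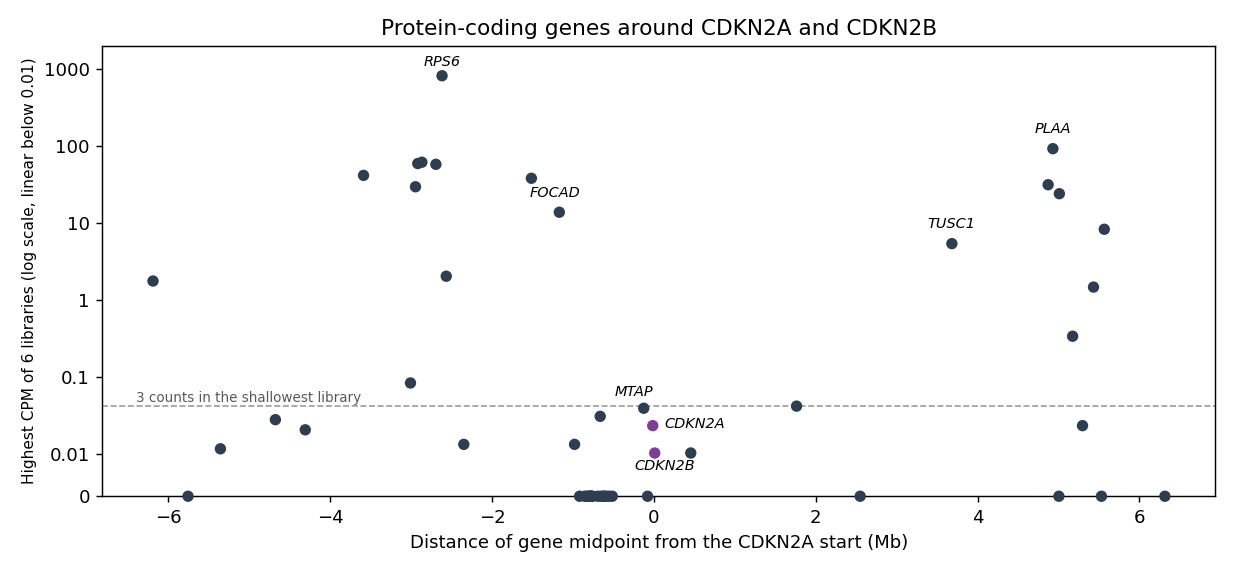
Highest CPM over the 6 libraries (vertical axis, logarithmic above 0.01 and linear below) of the 52 protein-coding genes within 6 Mb of the CDKN2A start, against the distance of the gene's midpoint (horizontal axis, Mb), with CDKN2A and CDKN2B in purple. Genes between FOCAD and TUSC1 lie at or under the dashed line, which marks 3 counts in the shallowest library, at 0.0414 CPM.

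The other INK4 genes were expressed. CDKN2C, encoding p18, had 35.0, 36.6 and 38.9 CPM in the ADAR1 p110 libraries and 30.0, 30.0 and 29.9 CPM in the GFP libraries, and all of the former lay above the latter. The log2 fold change was 0.30 (SE 0.058, 95% interval 0.17 to 0.43, edgeR adjusted p = 0.0145). The call was lost without ADAR1 p110 replicate 2 (adjusted p = 0.0556), ADAR1 p110 replicate 3 (0.0837), GFP replicate 1 (0.0698) and GFP replicate 3 (0.0719), with log2 fold changes of 0.26 to 0.31, and the replicate number as a block gave 0.0635. It was called without the pair that stood apart, at 0.34. CDKN2D, encoding p19, had 13.9, 17.7 and 15.0 CPM against 12.4, 13.3 and 12.2 CPM. These groups did not overlap either, but the log2 fold change of 0.30 (95% interval 0.10 to 0.51 before adjustment) did not pass (edgeR adjusted p = 0.0942). Its spread was widest in the ADAR1 p110 group, where replicate 2 lay above the other 2 libraries. It passed without ADAR1 p110 replicate 1 (adjusted p = 0.0142), without the pair that stood apart (0.00298), by DESeq2 (0.0338) and without the low-count filter (0.0123), a fit in which edgeR pooled the spread over genes.

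The proportion of these 2 genes to each other was similar in both groups. CDKN2C made up 51.9% ± 3.06 of the INK4 sum per kb in the ADAR1 p110 group and 51.9% ± 1.14 in the GFP group, while the sum itself was 21.4 ± 1.52 and 17.4 ± 0.413 CPM per kb (SD, n = 3 each).

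Of the D-type cyclins only CCND1 passed the test. CCND1 (ENSG00000110092.3_2, hg19 chromosome 11, 69455855 to 69469242, plus strand) was counted 22115, 29318 and 23090 times in ADAR1 p110 replicates 1 to 3 and 20314, 17560 and 22800 times in the GFP replicates. Scaled, these were 291, 298 and 299 CPM against 234, 242 and 232 CPM, a narrow spread within each group and no overlap. The log2 fold change was 0.33 (SE 0.046, 95% interval 0.22 to 0.43, edgeR adjusted p = 0.00231), called in all 14 alternatives at 0.32 to 0.36. ORAOV1, which overlaps the end of CCND1 in antisense, was counted 12331 times over the 6 libraries, 9.12% as many counts as CCND1 had itself, with a log2 fold change of -0.07 (edgeR adjusted p = 0.596). Whether counting used strand is not given in the sources used here.

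CCND3, a D-type cyclin gene with a known part in lymphocyte development, had 190, 187 and 176 CPM in the ADAR1 p110 libraries and 197, 180 and 193 CPM in the GFP libraries. The groups overlapped, with a log2 fold change of -0.05 (95% interval -0.17 to 0.07, edgeR adjusted p = 0.706). CCND2 was low, at 1.76, 1.93 and 2.08 CPM against 2.07, 1.49 and 1.74 CPM, and its log2 fold change of 0.12 had a wide interval, -0.23 to 0.47 (edgeR adjusted p = 0.757). The intervals of CCND3 and CCND1 did not overlap, while that of CCND2 covered both. CCND1 took 64.7% to 66.9% of the D-type cyclin sum per kb in the ADAR1 p110 libraries and 58.5% to 61.5% in the GFP libraries, and CCND2 at most 0.35% in any library.

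**Figure D4:**
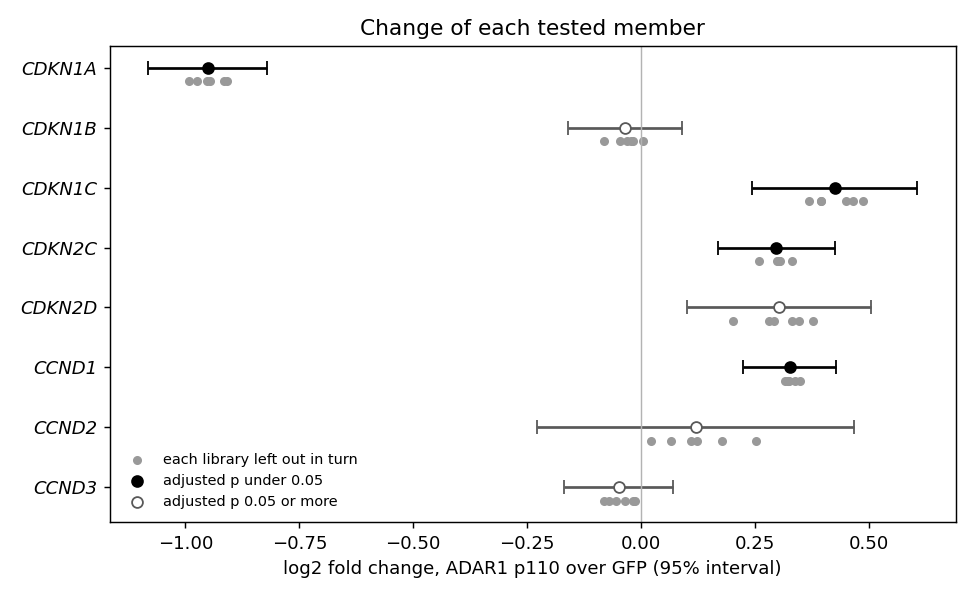
Change between the groups (horizontal axis, log2 of ADAR1 p110 over GFP) of the 8 tested members, with 95% intervals before adjustment for the number of genes and filled points where the adjusted p was under 0.05. Grey points under each give the value with each of the 6 libraries left out in turn, from -0.99 to -0.91 for CDKN1A and 0.32 to 0.35 for CCND1.

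Per kb of the deposited lengths, the order of the members changed with CDKN1A. In CPM not divided by length, CDKN1A lay below CCND1 and CCND3 in both groups. These 3 genes had 159, 236 and 190 CPM in the GFP group and 82.3, 296 and 184 CPM in the ADAR1 p110 group. Per kb of gene length, the GFP group ran from CDKN1A (52.2 CPM per kb), CCND1 (48.9), CCND3 (32.8) and CDKN1B (23.0) down to CDKN2C (9.03), CDKN2D (8.40), CDKN1C (4.91) and CCND2 (0.247). In the ADAR1 p110 group CCND1 (61.2 CPM per kb) came first, then CCND3 (31.7), CDKN1A (27.0), CDKN1B (22.5), CDKN2C (11.1), CDKN2D (10.3), CDKN1C (6.59) and CCND2 (0.269). In the GFP libraries CCND1 had 0.890 to 0.999 times the level of CDKN1A per kb, so that these 2 neighbours almost touched in GFP replicate 2. In the ADAR1 p110 libraries the ratio was 2.15 to 2.37. CDKN2C and CDKN2D overlapped in level in the ADAR1 p110 group, with ratios of 0.937 to 1.17.

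IER3, SDC4 and STAT5A came nearest to CDKN1A in pattern over the 6 libraries, by the root mean square difference of centred log2 CPM among 10756 other genes with at least 5 CPM. IER3, an early response gene, lay 0.021 away and fell from 961 ± 20.2 to 497 ± 31.3 CPM. SDC4, encoding the cell surface proteoglycan syndecan-4, lay 0.034 away and fell from 380 ± 2.26 to 195 ± 9.97 CPM. STAT5A, a transcription factor gene of cytokine signalling, lay 0.036 away and fell from 23.7 ± 0.844 to 11.9 ± 0.825 CPM. The libraries share their 2 groups, so likeness here mostly restates a fall of similar size.

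Genes that act with the members were described from lists. Over all 18899 tested genes 4.91% passed, 1.95% as higher and 2.96% as lower. Of 10 CDK and other cyclin genes 1 rose and none fell, with a median log2 fold change of 0.11. The kinase genes CDK4 and CDK6, picked after their values were seen, had 125 ± 11.1 against 123 ± 4.19 CPM and 170 ± 26.9 against 170 ± 15.2 CPM, and did not pass (edgeR adjusted p = 0.907 and 0.997). CCNA1, a cyclin A gene best known from the germ line, rose from 4.70 ± 0.268 to 6.89 ± 0.473 CPM (log2 fold change 0.55, edgeR adjusted p = 0.00612). At an unadjusted p under 0.05 there were 5 of the 10, CCNA1 included and all higher, a share not counted here over all genes. The rest, named after their values were seen, were CDK1 (0.13), CCNB1 (0.20), CCNB2 (0.17) and CCNE1 (0.15). Their edgeR adjusted p ran from 0.0858 to 0.266. Of 17 genes of the RB and E2F families and their LIN partners 2 rose and none fell, with a median of 0.00. These were E2F1, at 46.6 ± 2.73 against 38.2 ± 1.86 CPM (log2 fold change 0.28), and E2F2, at 7.44 ± 0.286 against 5.81 ± 0.338 CPM (0.36), both activators of S phase genes. Leaving out any single library other than ADAR1 p110 replicate 1 ended both calls, with adjusted p from 0.0587 to 0.147. Of 8 enzymes that switch CDKs on or off, 1 fell and none rose (median 0.07). It was CDC25A, a phosphatase gene that activates CDK2, at 92.4 ± 6.13 against 113 ± 3.24 CPM (-0.29), lost without ADAR1 p110 replicate 3 (adjusted p = 0.0588), GFP replicate 1 (0.0597) or GFP replicate 3 (0.0997).

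Genes that control the level of the members were examined next, beside the same 4.91% of all tested genes. None of 17 genes of the ubiquitin ligases that degrade D-type cyclins and CIP/KIP proteins passed in the main edgeR fit (median -0.01). The most abundant of them, DDB1, had 552 ± 32.8 against 590 ± 29.2 CPM. At an unadjusted p under 0.05 there were 4 of these 17, a share not counted here over all genes. Named after their values were seen, these were FBXO4 (0.37), CDC20 (0.22), CKS2 (0.19) and FBXW7 (-0.15). FBXO4 and CDC20 came nearest to passing (edgeR adjusted p = 0.0542 and 0.0547). The same count was 4 of 17 RB and E2F genes, 4 of 8 switching enzymes and 11 of 27 transcription factor genes. It was 4 of 13 Polycomb genes with KDM6B and 6 of 19 E2F targets. The number called among the 17 moved with the fit. DESeq2 called 3 of the 17, and 1302 genes in all. Library size alone gave 3, no low-count filter 2 and limma-voom 1. Without ADAR1 p110 replicate 1, alone or together with GFP replicate 2, there were 3. Of 27 tested transcription factor genes known to act at CDKN1A, CDKN1B or the D-type cyclin genes, 4 rose and 1 fell, with a median of 0.02. ID1, an inhibitor of helix-loop-helix factors, rose from 83.9 ± 5.50 to 138 ± 14.7 CPM (log2 fold change 0.72, edgeR adjusted p = 0.000429) and JUN, an AP-1 subunit that acts at CCND1, from 169 ± 10.3 to 229 ± 20.8 CPM (0.44, 0.00554). The others, named after their values were seen, were EGR1 (0.47) and KLF4 (0.25), which rose, and SMAD3 (-0.25), which fell. The call of each of these 3 was lost without GFP replicate 1, those of SMAD3 and KLF4 also without ADAR1 p110 replicate 2 or 3 or GFP replicate 3, and that of SMAD3 without GFP replicate 2, at adjusted p of 0.0534 to 0.114. Polycomb genes, known to keep the INK4 locus silent, were listed with KDM6B, the gene of a demethylase that acts against them, and of these 13 genes 1 rose and none fell (median 0.10). KDM6B had a log2 fold change of -0.27 and did not pass (edgeR adjusted p = 0.327). The gene that rose was CBX2, at 9.57 ± 0.824 against 7.53 ± 0.280 CPM, and its call was lost without any library but ADAR1 p110 replicate 1, with adjusted p from 0.0971 to 0.172.

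Targets of the pathway were set beside the members. Of 19 E2F targets of S phase entry 1 rose (5.26%, beside 4.91% of all tested genes passing) and none fell (median 0.08). It was MCM6, a subunit of the replicative helicase, at 68.2 ± 2.68 against 58.0 ± 1.74 CPM (0.23), lost without ADAR1 p110 replicate 2 or 3 or GFP replicate 1 or 3 (adjusted p 0.0549 to 0.153). Across these lists and FOCAD, 11 of 112 tested genes (9.82%) passed, 9 higher and 2 lower, beside 4.91% of all tested genes. That count was 24 without ADAR1 p110 replicate 1 and 5, 4, 3, 7 and 4 when ADAR1 p110 replicate 2, ADAR1 p110 replicate 3, GFP replicate 1, GFP replicate 2 or GFP replicate 3 was left out.

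**Figure D5:**
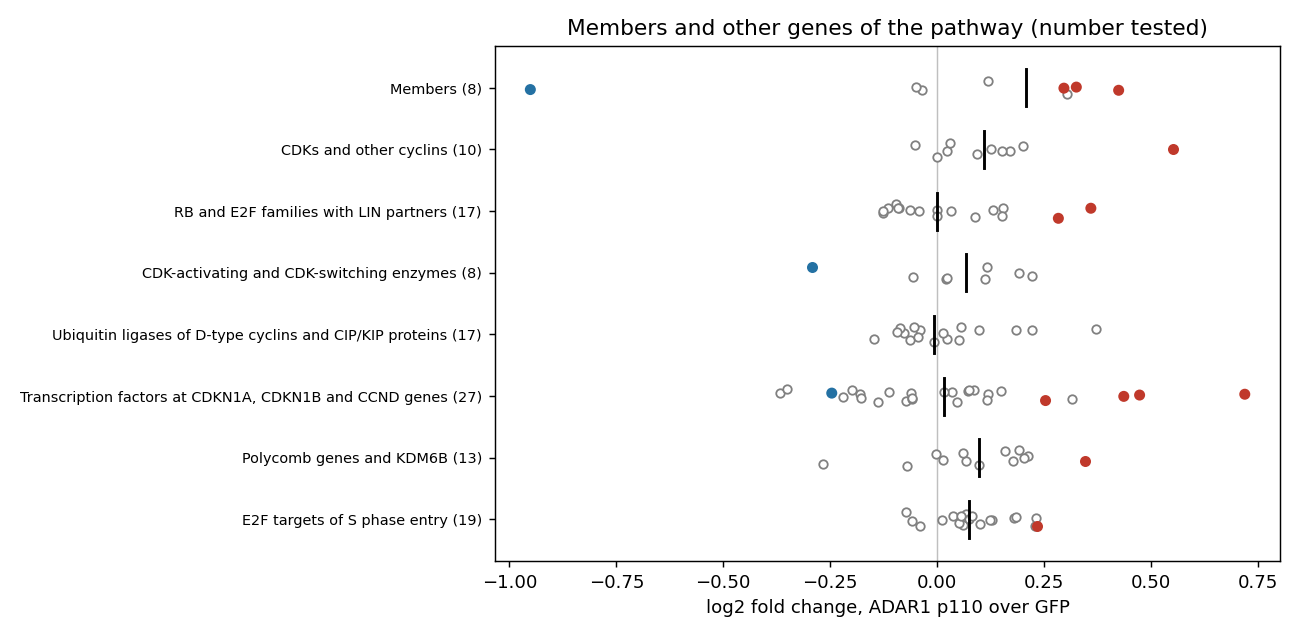
Change between the groups (horizontal axis, log2 of ADAR1 p110 over GFP) of the 8 tested members and the tested genes of 7 pathway lists, with the number tested in brackets, called genes in red (higher) or blue (lower), others open, and list medians as black bars. CDKN1A, at -0.95, is the lowest point shown, and medians of the lists lie between -0.01 and 0.11.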

How the data were processed

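Total RNA of 6 samples was made into stranded sequencing libraries, per the labels' protocols. The submitters' processing notes name STAR 2.5.2a, hg19 and featureCounts 1.5.1. The authors deposited raw counts per gene, with gene lengths, per the file headers. The strand setting and the handling of multiply aligned or duplicate reads are not stated (not given in the sources used here).

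Here, genes kept by filterByExpr of edgeR 4.0.16 (minimum count of 10) were scaled by TMM and fitted on group alone by glmQLFit and glmQLFTest (R 4.3.3), with Benjamini-Hochberg adjustment over all tested genes. SEs were derived from the F statistic (absolute log2 fold change over the root of F). Replicates differed by more than sampling noise (chi-square of 7.94 to 35.4 per degree of freedom). The biological coefficient of variation was 8.00%. Tests were checked on simulated counts. A first version, drawn with each gene's own estimated dispersion and judged over all genes, missed the limits set for it: weakly expressed changed genes were often not recovered, and the share of false calls by edgeR, DESeq2 and limma-voom lay above the nominal level. In that version the share was larger by DESeq2 than by edgeR. The limits were then set for counts drawn with trended dispersions, with recovery judged on genes of at least 5 CPM. They allowed any share of false calls under 10%, and all 3 tools met them. Recovery of changes as small as those of CCND1, CDKN1C and CDKN2C is not reported here. The limits that were met should not be read as covering it. Calls close to the threshold should be read with this in mind.

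Members and lists were chosen with earlier results of these data known. All 10 members are named, with ADAR, up to 2 called genes per list by smallest p (or the most abundant tested gene where none was called) and the 3 genes nearest in pattern to the member with the smallest p. Other names are said to be picked after values were seen. One gene and a list that depends on it are not reported here.

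Alternatives were DESeq2 size factors, library size alone, no low-count filter, DESeq2 1.42.0, limma-voom (limma 3.58.1), the replicate number as a block, ADAR counts removed, each library left out, and ADAR1 p110 replicate 1 with GFP replicate 2 left out together.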

Additional observations from a re-analysis of the deposited data

How the results depend on the processing

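CDKN1A and CCND1, and CCNA1, ID1 and JUN of the pathway lists, were called with the same direction in all 14 alternatives. The calls of CDKN1C and CDKN2C were lost in some, and the counts move with the libraries used. Leaving out 1 library gave 2 to 5 called members, 396 to 1812 called genes and 3 to 24 called genes of the pathway lists (FOCAD counted with them). Without both ADAR1 p110 replicate 1 and GFP replicate 2 there were 2605 called genes and 32 of the lists, and CDKN2D was called beside the 4 members. Called genes numbered 1553 without the low-count filter, where edgeR pooled the spread over genes and the p-value of CDKN1A was far smaller than in the filtered fit, and that fit called 17 genes of the lists, DESeq2 20 and library size alone 18, against 11. Library size alone moved the log2 ratio of the D-type cyclin sum from 0.19 to 0.21 and the median of all genes to 0.03. Same-numbered libraries did not vary together (correlations of deviations -0.11, -0.03 and 0.04), and no ADAR1 p110 library correlated best with the GFP library of its own number. With the replicate number as a block, 3 members, 508 genes and 4 genes of the lists were called, the call of CDKN2C being lost. Log2 fold changes near 0 changed sign. With 1 library left out, CDKN1B ran from -0.082 to 0.004, CDK4 from -0.02 to 0.094 and CDK6 from -0.129 to 0.097, and CDK6 was at -0.006 by limma-voom, -0.007 with the replicate block and -0.056 without the pair named above. The cause of these changes was not tested. CDKN2A and CDKN2B, with no more than 2 counts in any library, could not be compared.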
